A study of Mus musculus with 8 samples.

Results

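The genes described here are 35 mouse genes that build the acrosome or act when sperm meet and fuse with the egg, taken by symbol from the 56748 genes of a testis RNA sequencing series. They were grouped by step into acrosome biogenesis (7 genes), the acrosomal matrix (11), zona contact and exocytosis (6), and membrane fusion with egg activation (11). All 35 symbols matched an Ensembl row, and 34 had enough counts to be tested. The exception was Syt6, with 19 counts over 8 libraries. All 35 genes are autosomal.

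Whole adult testis was sequenced in 4 libraries of genotype Ssty2-/- and 4 wild-type libraries. Ssty2 is a multicopy gene of the long arm of the mouse Y chromosome that is expressed in spermatids. The labels name neither strain, exact age nor how the deletion was made, and nothing in them says that each library is a separate animal. The p-values therefore reflect library-to-library spread, part of which may be technical. The comparison asks which testis transcripts differ in level between Ssty2 knockout and wild-type mice.

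The acrosome is a secretory vesicle that grows from the Golgi of the round spermatid and spreads over the nucleus as a cap. Its matrix holds hydrolases, lysozyme-like proteins and zona-binding proteins. At fertilization it is released by a SNARE-driven, calcium-triggered exocytosis. The exposed sperm membrane then carries IZUMO1 and its partners to the egg, where IZUMO1 binds the receptor JUNO and the membranes fuse, and a sperm phospholipase starts the calcium oscillations of egg activation.

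Libraries held between 18036708 and 24415587 counts. The wild-type libraries gave 56, 78, 83 and 45 counts for Ssty2, and the knockout libraries gave none. Reads of its near-identical copies may have been split or dropped in counting, so these counts check the labels and are not a measure of its level. Of 21952 tested genes, 26.2% were called higher in knockout and 27.4% lower (quasi-likelihood test in edgeR, adjusted p under 0.05). Markers of the other cells of the testis moved as well. Of 34 tested spermatid markers, 32 rose (median log2 fold change 0.52), and their summed level went from 22840 to 27110 CPM, the counts scaled to a common library total, in wild type to 34770 to 38510 in knockout. All 12 Leydig cell markers and 15 of 16 Sertoli cell markers fell, with medians of -0.98 and -0.62, and summed levels of 2600 to 2840 against 1340 to 1511 CPM and 1852 to 2064 against 1214 to 1372 CPM. Of 14 spermatogonial markers 11 fell and 1 rose (472.2 to 592.3 against 313.7 to 339.7 CPM), and of 16 spermatocyte markers 8 fell and 1 rose (2758 to 3067 against 2610 to 2829 CPM). Of the markers of peritubular myoid cells 7 of 8 fell (192.5 to 217.7 against 119.5 to 147.5 CPM), of macrophages 6 of 8 (118.1 to 134.9 against 78.4 to 99.21 CPM) and of endothelial cells 3 of 6 (24.84 to 28.16 against 19.34 to 21.42 CPM), and none rose. Of 3 tested epididymis markers 1 fell (8.271 to 11.07 against 6.054 to 8.451 CPM over the list). No marker of these lists was at 0 in all libraries. The part of these shifts in the results on acrosome genes was not tested, and in whole testis a change in the number of spermatids cannot be told apart from a change in transcript per spermatid.

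In every step most of the tested acrosome and fusion genes were higher in knockout. Of the 34 tested, 30 rose, against 26.2% of all tested genes, and none fell, against 27.4%. The other 4 did not pass, while 53.5% of all tested genes passed in either direction. The members had a median log2 fold change of 0.41 against -0.01 over all tested genes. The genes that rose did so by 0.15 to 0.85 on the log2 scale, and none reached 2-fold. For 27 of the 34, every knockout library lay above every wild-type library, an arrangement found in 22.7% of all tested genes. For none did every knockout library lie below every wild-type library, as in 24.0% of all tested genes. Together the 35 genes took between 0.594% and 0.647% of the counts in wild-type libraries and between 0.697% and 0.748% in knockout libraries, so the groups did not overlap in that share either. When libraries were scaled by their totals alone, the median of all tested genes moved to -0.15. On that scale 26 members rose and 1 (Gopc) fell, and 31.8% of all calls were higher in place of 48.9%.

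**Figure D1:**
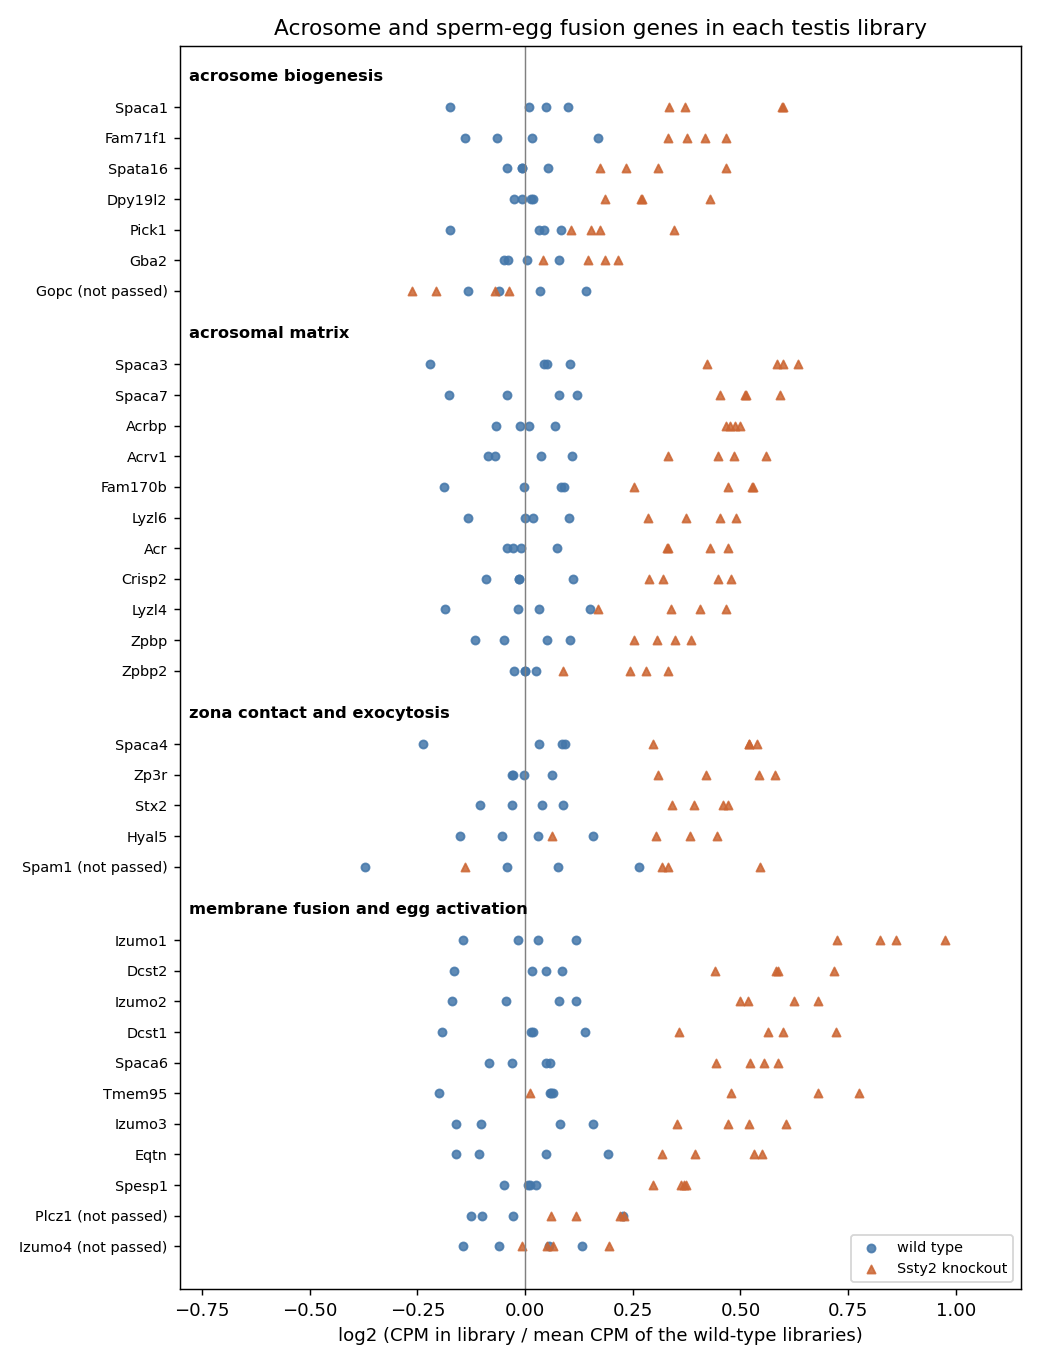
Log2 of the CPM in each library over the mean of the wild-type libraries (x axis) for the 34 tested genes, by step (y axis), with 4 wild-type libraries as circles and 4 Ssty2 knockout libraries as triangles. In the acrosomal matrix all 11 genes show knockout points to the right of every wild-type point. Mixed points are seen for Gopc, Izumo4, Spam1 and Plcz1, which did not pass, and for Gba2, Hyal5 and Tmem95, which passed.

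In acrosome biogenesis 6 of 7 genes rose and none fell, with a median log2 fold change of 0.29. Spaca1, which encodes a membrane protein of the forming acrosome, had 135.1, 115.9, 140.1 and 131.6 CPM in the wild-type libraries and 169.2, 164.9, 197.5 and 197.9 CPM in the knockout libraries. The groups did not overlap, and the log2 fold change was 0.48 ± 0.0728 (SE; n = 4 per group, edgeR adjusted p = 4.44e-05). Fam71f1, needed for normal acrosome shape, had 308.8, 249.7, 278.1 and 262.8 CPM in wild type against 367.3, 379.9, 346 and 356.7 CPM in knockout. Every knockout library was higher, by 0.40 ± 0.0624 on the log2 scale (edgeR adjusted p = 5.96e-05). Dpy19l2 encodes the nuclear envelope protein that anchors the acrosome to the nucleus. Its wild-type libraries lay close together at 199.8, 206.1, 205.3 and 202.3 CPM, and its knockout libraries at 231.2, 273.7, 245.3 and 245.6 CPM (log2 fold change 0.29 ± 0.0554, edgeR adjusted p = 0.000344). Spata16, which encodes a Golgi protein of the round spermatid, rose by 0.30 ± 0.06 with no overlap.

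The other biogenesis genes, Gba2, Pick1 and Gopc, are also used in many tissues outside the testis, and their differences were small. Gba2 encodes a glucosylceramidase outside the lysosome. It went from 106.2 ± 4.28 to 117.8 ± 6.06 CPM (mean ± SD, n = 4 per group), a log2 fold change of 0.15 with an edgeR adjusted p of 0.0331, and its groups overlapped. The call for Gba2 ended when any of 6 libraries was left out (knockout replicates 1 to 3, wild-type replicates 2 to 4), and with scaling by library totals its log2 fold change was 0.01. Pick1, a trafficking adaptor that carries Golgi vesicles to the acrosome, had 24.34, 21.08, 24.5 and 25.2 CPM in wild type and 30.22, 25.59, 26.83 and 26.43 CPM in knockout. Its knockout libraries were all higher, but the adjusted p was 0.0496 and the call ended in 12 of 16 alternatives, among them each fit without a library other than knockout replicate 2. Gopc, the Golgi partner of Pick1, did not pass. Its wild-type libraries had 33.46, 36, 29.79 and 31.3 CPM and its knockout libraries 27.22, 31.08, 31.8 and 28.29 CPM. The log2 fold change of Gopc was -0.14, with an approximate 95% interval from -0.29 to 0.02 (edgeR adjusted p = 0.151), and it was the only tested member with a value below 0.

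Every gene of the acrosomal matrix rose, 11 of 11, with no overlap between groups in any of them and a median log2 fold change of 0.40. Acrbp encodes the protein that binds proacrosin and packs it into the granule. Its levels were 191.2, 174.1, 180.7 and 183.4 CPM in wild type and 255.5, 253.7, 251.7 and 257.5 CPM in knockout. The knockout libraries of Acrbp spanned only a few CPM, and the log2 fold change was 0.48 ± 0.0489 (SE; edgeR adjusted p = 8.44e-07). Acr, which encodes acrosin, the main acrosomal protease, had 145.5, 134.1, 135.4 and 137.2 CPM in wild type against 185.9, 173.6, 191.3 and 173.8 CPM in knockout (log2 fold change 0.39).

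The lysozyme-like genes of the matrix, Spaca3, Lyzl4 and Lyzl6, moved in the same direction. Spaca3 went from 90.59, 75.15, 90.16 and 94.1 CPM to 132.6, 117.3, 135.7 and 131.3 CPM, the largest fold change of the matrix genes at 0.56 ± 0.0712 (edgeR adjusted p = 7.73e-06). Lyzl4 had 60.17, 53.49, 67.61 and 62.22 CPM in wild type and 76.93, 68.5, 80.69 and 84.06 CPM in knockout (0.35 ± 0.0776). Lyzl6 had 83.48, 76.2, 89.57 and 84.58 CPM in wild type and 108.1, 101.7, 114.2 and 117.1 CPM in knockout (0.40 ± 0.0638). In both genes replicate 2 was the lowest library of each group.

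Zpbp and Zpbp2 encode related zona-binding proteins needed to compact the matrix. Zpbp had 174.5, 182.8, 195.9 and 203.5 CPM in wild type and 225.4, 234, 240.9 and 247.2 CPM in knockout. Zpbp2 had 249.7, 241.2, 245.2 and 245.4 CPM in wild type and 290.7, 308.8, 260.9 and 298.3 CPM in knockout. The rise was 0.32 ± 0.0573 for Zpbp and 0.24 ± 0.0554 for Zpbp2, the smallest of the matrix genes, and the Zpbp2 call ended with scaling by library totals (0.10, adjusted p = 0.124). Spaca7, whose protein is released when the acrosome opens, went from 52.14, 57.26, 64.02 and 62.27 CPM to 80.69, 84.13, 83.91 and 88.77 CPM (0.52 ± 0.0679, edgeR adjusted p = 1.14e-05). Acrv1, a classic marker of the acrosome, rose by 0.46 and Fam170b by 0.45. Crisp2, a cysteine-rich secretory protein gene of acrosome and tail, was the most abundant member, rising by 0.39 from 1859 ± 109 to 2429 ± 157 CPM.

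Of the 5 tested genes of zona contact and exocytosis, 4 rose and none fell, with a median log2 fold change of 0.42. Stx2 was the only tested exocytosis gene among them. Further exocytosis genes, given below, had a median of -0.37. Zp3r, which encodes a zona-binding protein of the matrix, had 114.3, 114.4, 121.8 and 116.5 CPM in wild type and 144.5, 156.1, 174.5 and 170.1 CPM in knockout (0.47 ± 0.0618, edgeR adjusted p = 1.22e-05). Spaca4, a surface protein gene used in zona penetration, had 96.04, 76.41, 91.99 and 95.55 CPM in wild type and 129.1, 110.6, 130.7 and 129 CPM in knockout. Neither gene overlapped between groups, and Spaca4 rose by 0.47 ± 0.0756. Stx2, a syntaxin of the exocytic SNARE complex that is also needed by dividing spermatocytes, had 48.18, 42.12, 44.4 and 46.55 CPM in wild type and 62.33, 59.44, 62.85 and 57.4 CPM in knockout, a rise of 0.42 ± 0.064.

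The neighbouring hyaluronidase genes Spam1 and Hyal5, whose enzymes loosen the matrix around the egg, varied widely between libraries of a group. Spam1 ranged from 56.82, 71.34, 88.25 and 77.47 CPM in wild type to 66.73, 91.6, 92.48 and 107.2 CPM in knockout. The groups of Spam1 overlapped, with replicate 1 lowest in each, and it did not pass (log2 fold change 0.28 ± 0.127, approximate 95% interval 0.03 to 0.53, edgeR adjusted p = 0.0708). Spam1 passed without knockout replicate 1 (0.40, adjusted p = 0.00384) and without wild-type replicate 3 (0.38, adjusted p = 0.0229), and with the upper-quartile scaling, no low-count filter or the replicate block. Hyal5 had 106.6, 120.7, 131.9 and 114 CPM in wild type and 123.5, 146, 161.2 and 154.3 CPM in knockout, and rose by 0.30 ± 0.0795 (adjusted p = 0.00411) although its groups overlapped. With scaling by library totals the Hyal5 call ended (0.16, adjusted p = 0.103). Syt6, a synaptotagmin gene linked to acrosomal exocytosis, was nearly silent. Its wild-type libraries gave 0, 1, 2 and 5 counts and its knockout libraries 5, 2, 2 and 2, so no difference was detectable at this depth.

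Of 11 genes of membrane fusion and egg activation, 9 rose and none fell, with the highest median of the steps at 0.52. Izumo1, the sperm ligand of the egg receptor JUNO, had the largest change of all members. It had 72.78, 64.43, 77.31 and 70.4 CPM in wild type and 126, 117.6, 139.9 and 129.4 CPM in knockout, a 1.80-fold difference (log2 fold change 0.85 ± 0.0677, edgeR adjusted p = 7.51e-08). The lowest knockout library of Izumo1 was far above the highest wild-type library. In the annotation used, 21.9% of the exon bases of Izumo1 overlap Rasip1 on the same strand, which had 491 counts in all against 16366 for Izumo1. Same-strand overlaps were also found for Acrbp (29.75%, Gm44597, 212 counts) and Pick1 (18.59%, Gm49486, 29 counts).

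The relatives of Izumo1 had smaller fold changes. Izumo2 had 67.79, 55.59, 60.6 and 65.97 CPM in wild type and 96.36, 88.31, 89.4 and 100.1 CPM in knockout (0.58 ± 0.0696, edgeR adjusted p = 4.47e-06). Izumo3 had 75.4, 78.56, 94.01 and 89.25 CPM against 107.6, 120.8, 116.9 and 128.3 CPM (0.49 ± 0.0742). Izumo4 did not pass, with 90.23, 74.45, 78.9 and 85.5 CPM in wild type and 94.21, 86.01, 81.83 and 85.17 CPM in knockout. Its log2 fold change was 0.08, with an approximate 95% interval from -0.06 to 0.21 (edgeR adjusted p = 0.348), and -0.06 with scaling by library totals. The groups of Izumo4 overlapped, while those of the other 3 family members did not, and whether the fold changes differ was tested only for Izumo1 against Izumo3.

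**Figure D2:**
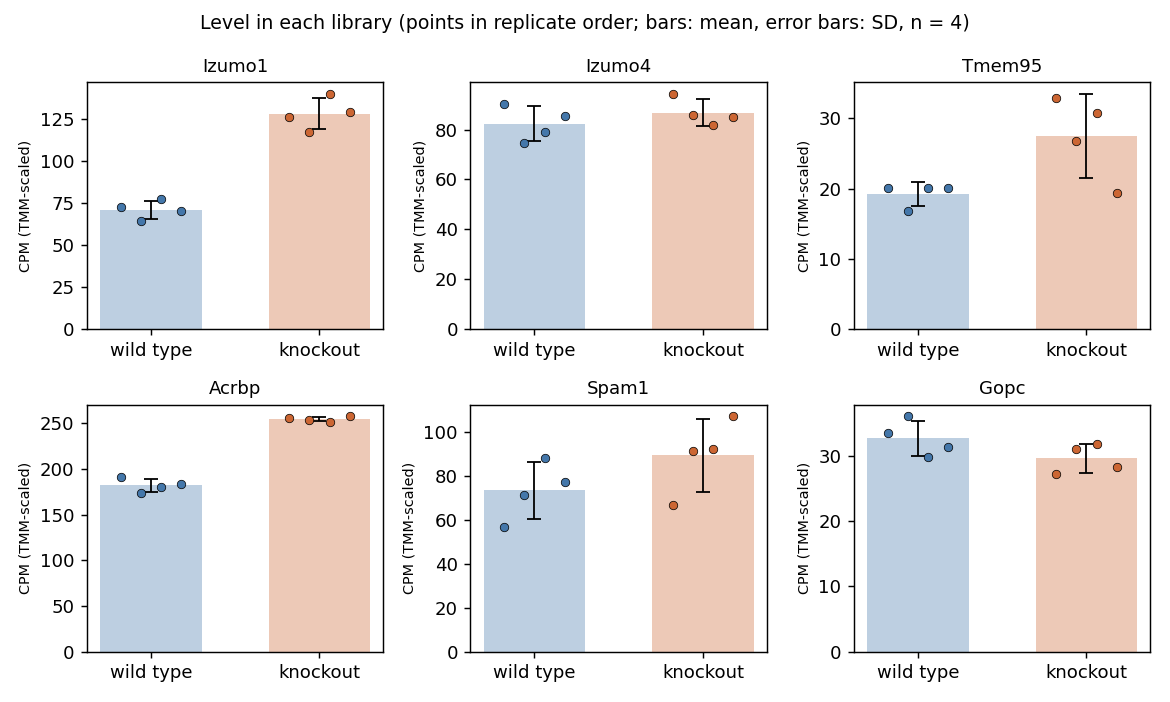
CPM after TMM scaling (y axis, from 0) in wild-type and Ssty2 knockout libraries for 6 genes, with points for single libraries, bars for means and error bars for SD (n = 4). Izumo1 and Acrbp show separated groups, Tmem95 has 1 knockout library at the wild-type level, and Izumo4, Spam1 and Gopc overlap.

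Several other genes encode sperm proteins without which bound sperm fail to fuse. Spaca6 had 37.52, 35.3, 34 and 37.27 CPM in wild type and 52.88, 49.01, 54.14 and 51.75 CPM in knockout (0.53 ± 0.0645, edgeR adjusted p = 5.38e-06). Tmem95 had the lowest wild-type mean of the tested members in CPM, with 20.02, 16.75, 20.13 and 20.05 CPM in wild type and 32.91, 26.81, 30.81 and 19.38 CPM in knockout. Its fold change was 0.52 ± 0.126 (adjusted p = 0.00259), but knockout replicate 4 lay inside the wild-type range. Dcst1 and Dcst2 encode paired membrane proteins of the sperm surface. Dcst1 had 57.23, 49.6, 62.35 and 57.41 CPM in wild type and 83.69, 72.63, 93.42 and 85.86 CPM in knockout. Dcst2 had 66.81, 57.61, 68.58 and 65.35 CPM in wild type and 96.74, 87.65, 106.2 and 97.04 CPM in knockout. The pair rose by nearly equal amounts, 0.57 ± 0.081 and 0.59 ± 0.0701, and in both genes replicate 2 was the lowest library and replicate 3 the highest of each group.

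Spesp1, a gene of the equatorial segment where fusion starts, rose by 0.35 ± 0.0475 from 232.6 ± 5.29 to 296.7 ± 7.42 CPM. Eqtn, which encodes an acrosomal membrane protein of the same region, rose by 0.45 ± 0.0767 from 89.1 ± 9.98 to 121.9 ± 9.36 CPM. Plcz1, the phospholipase gene of egg activation, did not pass. It had 267.3, 272.3, 341.5 and 286.1 CPM in wild type and 304.1, 342.3, 316.6 and 339.9 CPM in knockout, with a log2 fold change of 0.16 and an approximate 95% interval from 0.02 to 0.30 (edgeR adjusted p = 0.0713). Wild-type replicate 3 lay close to the highest knockout library, and without it Plcz1 passed (0.24, adjusted p = 0.00528), as it did without knockout replicate 1 (0.19, adjusted p = 0.0376). In the annotation 4.26% of the exon bases of Plcz1 overlap Capza3 on the other strand, which had 37333 counts. Likewise 5.25% of those of Zpbp overlap Spata48 on the other strand, which had 12761 counts. The strand setting of the counting is not given.

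Per kilobase of annotated exon, Crisp2 had the highest wild-type level at 660 CPM per kb, followed by Fam71f1 (169), Zpbp2 (146), Spata16 (140) and Spaca4 (127). Gopc, Pick1, Spaca6, Stx2 and Dcst1 were the lowest of the tested genes, at 2.98, 3.62, 5.10, 9.88 and 10.8 CPM per kb. Izumo1 stood at 23.8 CPM per kb in wild type and 42.9 in knockout, below Izumo2 (86.3 and 129) and Izumo3 (66.6 and 93.6). Exon length was the union over all annotated transcripts, so a gene with long, rarely used exons reads low.

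To compare partners without any library scaling, the log2 ratio of counts was taken within each library for 10 pairs and tested by a two-sided exact permutation test. With 4 against 4 libraries the smallest p is 0.0286, and after adjustment over the 10 pairs none passed. A pair at that smallest p could pass only if most of the 10 pairs were there too. Not passing therefore does not show that a ratio stayed the same. The Dcst1 to Dcst2 ratio was -0.19 ± 0.0389 for wild type and -0.21 ± 0.0429 for knockout (n = 4 each, with SD; difference -0.02, exact permutation p = 0.571). The ratio of Zpbp to Zpbp2 differed by 0.09 (exact permutation p = 0.4), of Spam1 to Hyal5 by -0.02 (p = 0.886 in the same exact test) and of Lyzl4 to Lyzl6 by -0.05 (p = 0.171 in the same exact test). For Acr to Acrbp the difference was -0.09 (exact permutation p = 0.0857).

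Ratios of Izumo1 to other fusion genes had higher means in knockout, and none passed the adjustment. Izumo1 had the largest fold change of the members, so the direction of these ratios restates that value and is not a separate result. Izumo1 to Izumo3 was -0.05, -0.29, -0.28 and -0.34 in wild type and 0.23, -0.04, 0.26 and 0.01 in knockout. The groups did not overlap, and the difference was 0.36 (exact permutation p = 0.0286, adjusted p = 0.0952). Izumo1 to Spaca6 went from 0.98 ± 0.14 to 1.30 ± 0.0544, also with no overlap (difference 0.32, exact permutation p = 0.0286, adjusted p = 0.0952). Izumo1 to Tmem95 overlapped (difference 0.36, exact permutation p = 0.0857). Its knockout values were 1.937, 2.132, 2.182 and 2.737, against 1.811 to 1.942 in wild type. The highest was replicate 4, the knockout library with the lowest Tmem95. The Gopc to Pick1 ratio did not overlap between groups and was lower in knockout, at 0.12 ± 0.196 against 0.46 ± 0.224 (difference -0.34, exact permutation p = 0.0286, adjusted p = 0.0952).

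**Figure D3:**
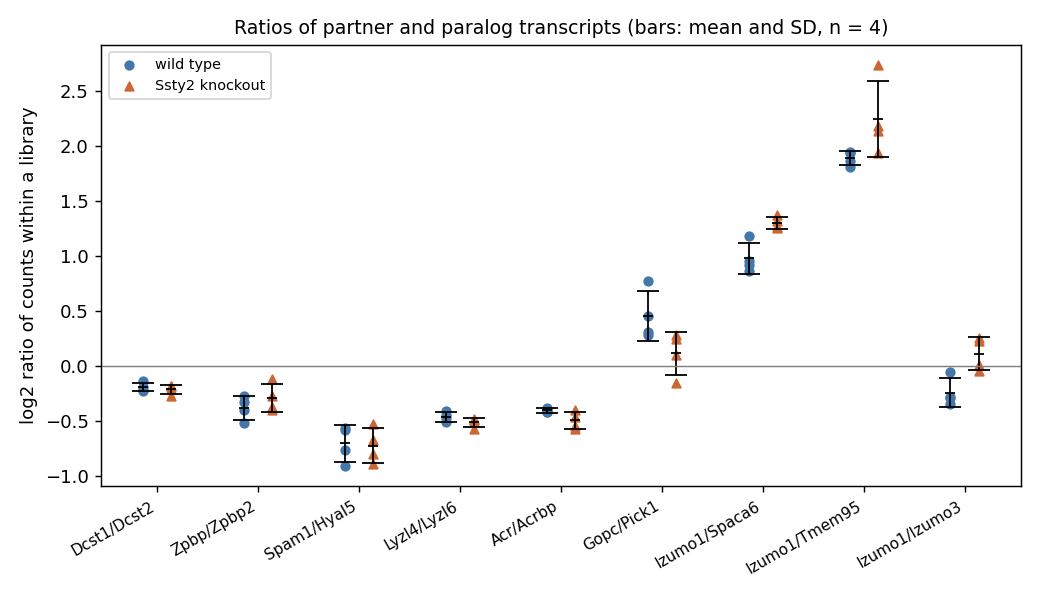
Log2 ratio of counts within a library (y axis) for 9 pairs of partners or relatives (x axis), with circles for wild-type and triangles for Ssty2 knockout libraries and bars for mean and SD (n = 4). Izumo1 to Spaca6 and to Izumo3 sit higher in knockout and Gopc to Pick1 lower, while the Dcst1 to Dcst2 points overlap around -0.2.

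Promoters are shown for Izumo1, which changed most, and for Dcst2, whose ratio to Dcst1 differed little between groups. Spaca1 and Acrbp, printed as well, hold TGACG, the motif marked below, and had the smallest p of their steps. Windows of 300 bases, from 250 bases before to 50 bases after the start site, were available from RefSeq (GRCm38.p6) for 31 members. The counts were made on another build, so the windows were matched by symbol only. In the windows of Izumo1 (chr7:45621561-45621860, + strand), Spaca1 (chr4:34050016-34050315, - strand) and Acrbp (chr6:125049677-125049976, + strand) the capitals mark TGACG, the core of the cyclic AMP response element, on either strand. In the Dcst2 window (chr3:89365069-89365368, + strand) they mark the 165 bases shared with the Dcst1 window, which reads the opposite strand.
Izumo1: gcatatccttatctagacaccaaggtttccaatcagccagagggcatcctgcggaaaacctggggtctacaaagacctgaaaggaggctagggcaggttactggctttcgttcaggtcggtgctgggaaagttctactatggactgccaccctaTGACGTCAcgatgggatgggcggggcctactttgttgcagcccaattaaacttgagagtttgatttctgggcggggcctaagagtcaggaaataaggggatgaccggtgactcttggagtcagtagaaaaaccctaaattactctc
Spaca1: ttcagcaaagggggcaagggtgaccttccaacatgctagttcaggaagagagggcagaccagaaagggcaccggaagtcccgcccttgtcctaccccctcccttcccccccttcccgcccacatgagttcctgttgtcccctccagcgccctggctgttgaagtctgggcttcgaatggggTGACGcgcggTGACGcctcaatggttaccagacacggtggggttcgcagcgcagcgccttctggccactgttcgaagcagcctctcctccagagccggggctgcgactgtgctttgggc
Acrbp: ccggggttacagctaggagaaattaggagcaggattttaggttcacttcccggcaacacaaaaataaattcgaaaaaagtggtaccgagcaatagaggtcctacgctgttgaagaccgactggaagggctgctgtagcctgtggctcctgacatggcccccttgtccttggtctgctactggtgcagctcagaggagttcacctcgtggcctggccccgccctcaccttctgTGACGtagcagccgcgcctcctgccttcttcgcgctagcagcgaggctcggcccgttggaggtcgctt
Dcst2: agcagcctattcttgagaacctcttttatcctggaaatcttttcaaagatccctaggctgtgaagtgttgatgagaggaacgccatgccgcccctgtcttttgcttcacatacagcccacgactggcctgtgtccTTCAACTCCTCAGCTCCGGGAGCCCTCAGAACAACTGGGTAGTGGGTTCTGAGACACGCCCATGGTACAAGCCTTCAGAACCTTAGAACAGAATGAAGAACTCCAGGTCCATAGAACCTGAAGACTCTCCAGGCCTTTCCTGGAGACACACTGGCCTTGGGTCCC
Dcst1 and Dcst2 are transcribed away from each other, from start sites 66 bases apart.

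Izumo1 was the only one of the 31 members with a window that held the full palindrome TGACGTCA, at position -96 from the start site. That is 2.56% of member windows, against 1.79% of all promoter windows of that length. The other 4 members had no window to search. The shorter TGACG, which the palindrome contains, was found on either strand in 13 of 39 member windows (33.3%) against 20.8% of 32817 windows in all, in 11 of 31 members and in 5 of 31 spermatid markers with a window. Spaca1 held it at -69 and -59, and Acrbp at -18. Gopc, which did not pass the test, also held TGACG. Dcst2, Izumo2 and Dcst1, which rose most after Izumo1, did not hold it. The X-box, the element read by RFX factors, matched in 10.3% of member windows (Lyzl4, Pick1, Spaca6 and Stx2) against 3.44% of all. CCAAT and TATAAA were found in 25.6% and 7.69% of member windows against 37.4% and 13.6% of all, and ACAAT in 15.4% against 31% of all. A match describes the letters only.

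Other genes of the same pathway were read from a list of 41, of which 40 were matched and 38 tested. Of 20 further biogenesis genes, 16 rose and 2 fell (median 0.38), against 26.2% and 27.4% of all tested genes. Fam71e2 (0.67), Fam71a (0.64) and Actl9 (0.52) had the smallest p, with Fam71e2 at 233.2, 191.5, 230 and 210.2 CPM in wild type and 330.2, 324, 376.8 and 347.5 CPM in knockout. The genes that fell act in Golgi traffic, and a link between that function and direction was not tested. Vps54, a vesicle tethering subunit, had 25.12, 34.03, 30.03 and 30.87 CPM in wild type and 19.22, 21.17, 21.72 and 22.99 CPM in knockout (-0.50), and the GTPase gene Rab6a fell by 0.21 with overlapping groups. The Rab6a call ended with upper-quartile scaling (-0.14, adjusted p = 0.119) and without knockout replicate 1 (-0.18), knockout replicate 4 (-0.19) or wild-type replicate 2 (-0.15). The 6 genes of that list related to Fam71f1 by name (Fam71a, Fam71b, Fam71d, Fam71e1, Fam71e2 and Fam71f2) passed as higher, against 26.2% of all tested genes. They rose by 0.25 to 0.67. Fam71e1, the smallest of these, had overlapping groups, and its call ended with scaling by library totals (0.11, adjusted p = 0.224) and without wild-type replicate 2 (0.18, adjusted p = 0.0554).

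Genes of the general exocytosis machinery were mixed. Of 11 tested, 6 fell, against 27.4% of all tested genes, 1 rose and 4 did not pass, with a median log2 fold change of -0.37. Unc13b, a vesicle priming factor gene, had 60.84, 64.04, 58.53 and 54.53 CPM in wild type and 45.15, 41.03, 48.65 and 49.25 CPM in knockout (-0.37 ± 0.0728, edgeR adjusted p = 0.000461). Its groups did not overlap. The small GTPase gene Rab3a fell by 0.70 on the log2 scale, from 5.27 ± 0.731 to 3.27 ± 0.581 CPM. The calcium sensor gene Doc2b (-0.77), Cplx2 (-1.24, from a wild-type mean of 0.88 CPM) and Vamp2 (-0.30) also fell, and Napa rose by 0.18. The Napa call ended with scaling by library totals (0.03, adjusted p = 0.617), without wild-type replicate 2 (adjusted p = 0.0525 in edgeR) and without wild-type replicate 4 (adjusted p = 0.0551 in edgeR). These genes are also expressed outside the germ line, and the Sertoli and Leydig cell markers given above were lower in the same libraries. The part of those cells was not tested.

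Of 7 tested genes from a further list labelled sperm-egg fusion, 6 rose and 1 fell (median 0.39), against 26.2% and 27.4% of all tested genes. Ccdc136 (0.49), Llcfc1 (0.33, needed for fusion) and Tmem190 (0.39) had the smallest p among those that rose. Tmem81, which binds IZUMO1 and SPACA6 in a complex, rose by 0.24 ± 0.0821, from 21.46, 20.47, 23.64 and 23.9 CPM to 24.64, 24.74, 29.06 and 27.07 CPM (edgeR adjusted p = 0.0223). The Tmem81 call ended with scaling by library totals (0.10, adjusted p = 0.348) and without knockout replicate 3 (0.19), wild-type replicate 1 (0.21) or wild-type replicate 2 (0.19). The gene that fell was Tex101 (-0.50), which encodes a germ cell surface protein.

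**Figure D4:**
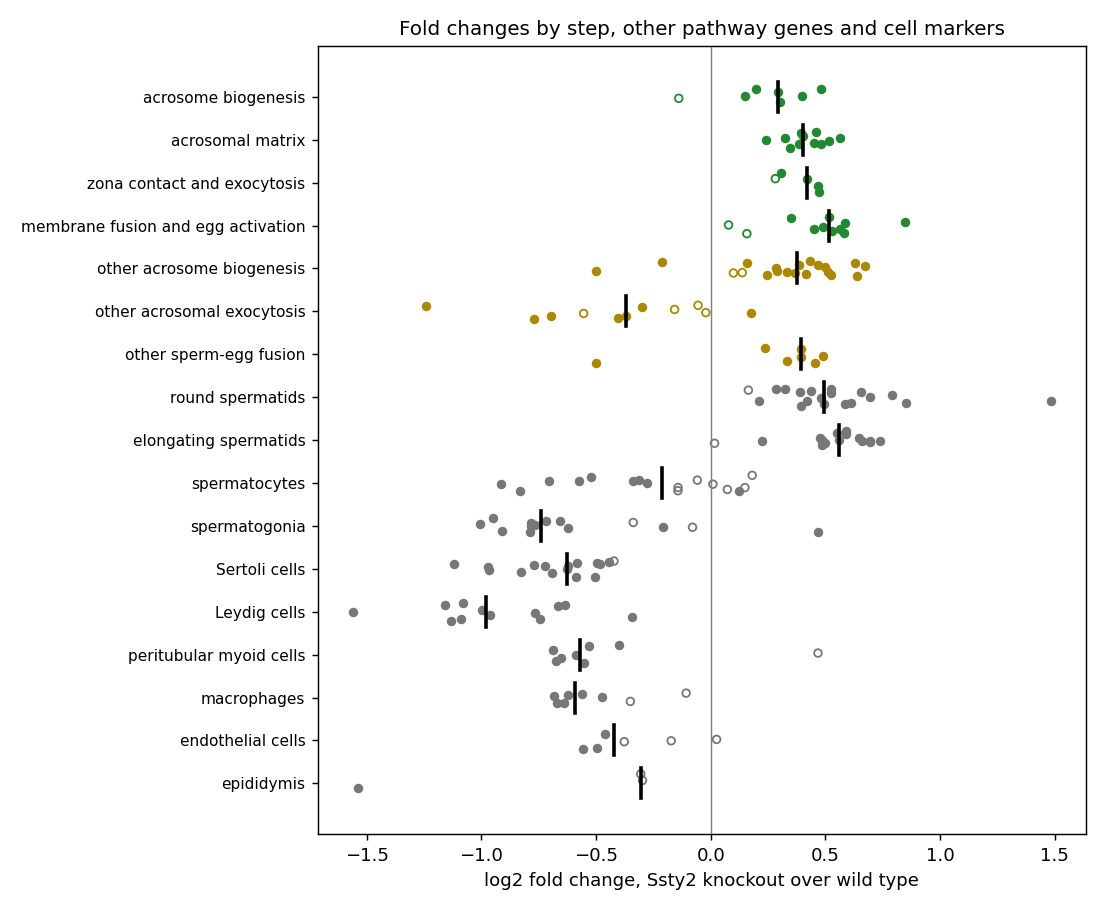
Log2 fold change of knockout over wild type (x axis) for each tested gene of the 4 steps (green), the other pathway lists (ochre) and cell markers (grey), with filled points for genes that passed, open points for those that did not, and black bars for medians. The 4 steps have medians from 0.29 to 0.52, against 0.49 for round and 0.56 for elongating spermatid markers. The other exocytosis genes have a median of -0.37 and the Sertoli and Leydig cell markers of -0.62 and -0.98.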

How the data were processed

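The authors deposited raw counts per Ensembl gene, whole numbers without normalization, in 1 column per library. Per the labels' protocols, TRIzol total RNA was treated with DNase and made into TruSeq libraries. The mm39 build and the tools STAR, featureCounts, Trimmomatic, FastQC and DESeq2 are named, per the submitters' processing notes. Versions, annotation, strand and multi-mapping settings were not given in the sources used here. Symbols, exon lengths and overlaps came from GENCODE vM21 (GRCm38).

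All genes were tested with edgeR 4.0.16 (quasi-likelihood, TMM, genotype only, filterByExpr with minimum count 10 and total 15) in R 4.3.3, after the step was tested on simulated data. Adjustment was by Benjamini-Hochberg over 21952 genes. SE is the log2 fold change over the root of the F statistic, and approximate intervals are 1.96 SE to each side. Totals of 18036708 to 24415587 counts make 3 counts worth 0.123 to 0.166 CPM before TMM scaling, which covers counting error only. Ratios of pairs used counts plus 0.5. Alternatives were other scalings, filters, DESeq2 1.42.0, limma-voom 3.58.1, a replicate block and each library left out.

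The members and lists were chosen with earlier results of these data known. Genes named are, in each step, the 3 with the smallest p, those that fell or did not pass, and both genes of each pair, with the remaining members given briefly. For the other pathway lists they are up to 3 genes per direction with the smallest p, and others that were chosen after their values were seen. Frey1 and H1f9, also listed, had no matched row. One gene of the exocytosis list that this rule names is not reported here.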

Additional observations from a re-analysis of the deposited data

Results flagged for a closer look

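Among 88 groups of 4 libraries examined, over the tested members and the pair ratios, 3 values stood far from the other libraries of their group, where chance marks about 1 group in 20. Spaca4 was low in knockout replicate 2, at 110.6 CPM. Tmem95 was low in wild-type replicate 2, at 16.75 CPM. Spesp1 was low in knockout replicate 1, at 285.7 CPM. Without those libraries Spaca4, Tmem95 and Spesp1 kept their direction and their call.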

How the results depend on the processing

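The count of members called higher was 30 and ranged from 26 to 32 over 16 alternatives. It was 26 with library totals, 32 with upper-quartile factors, and 29 with a filter at 1 CPM, with the DESeq2 Wald test and with limma-voom. It lay between 28 and 30 when single libraries were left out. With library totals 1 member, Gopc, was called lower, and Izumo4 changed sign (-0.0633). In all, 26 members were called in every alternative. With the replicate block 32 members were called higher, adding Spam1 (adjusted p = 0.00162) and Plcz1 (adjusted p = 0.0367) by edgeR. The replicate numbers are not shown to pair libraries: deviations of same-numbered libraries correlated at 0.0020 to 0.0798 across genes, and not every library correlated best with its own number. No pair ratio passed with 0.1, 0.5 or 2 added to each count. Pair ratios were not tested for the block or with a library left out. The smallest p of an exact test there is 0.125 and 0.0571, so no pair could pass. For Syt6 depth limits what could be seen. The small changes of Gba2 and Pick1 depended on the setting, being called in 8 and 4 of 16 alternatives. Of 32 called genes of the other pathway lists, examined under the same settings after seeing the data, those whose calls ended kept their direction. Causes of these changes were not tested.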

Other observations

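Wild-type replicate 2 was the lowest wild-type library for 21 of 34 tested members, against 27.1% of all tested genes, and replicate 3 the highest for 16. Among knockout libraries replicate 2 was lowest for 13 and replicate 1 for 12. For 21 of the 34 members the lowest library carried the same number in both groups, against 30.2% of all tested genes. These counts were made after the values were seen, and members are not independent of each other. Acrosome genes such as Dcst1, Dcst2, Spaca3, Spaca4, Lyzl4, Lyzl6 and Izumo1 were lowest in replicate 2 of each group, while Spam1, Hyal5, Zpbp, Spaca7 and Eqtn were lowest in replicate 1 of each.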
